A study of Mus musculus with 9 samples.

Results

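The matrix metalloproteases (MMPs), the ADAMTS proteases (a disintegrin and metalloprotease with thrombospondin motifs) and the tissue inhibitors of metalloproteases (TIMPs) were followed across 3 cell groups of the fetal mouse lung. Members were taken by gene symbol: 41 of the 24291 genes on the array, of which 18 were Mmp, 19 Adamts and 4 Timp genes. The array carried 85 probes for them, between 1 and 5 for each gene.

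Pregnant mice had received tamoxifen, the drug that switches on inducible Cre recombinases, at 0.1 mg per g body weight at stage E15.5, and this held for all groups. RFP-positive cells were sorted from fetal lungs at stage E18.5 after staining for Acta2, the smooth muscle actin, and PDGFRA, a receptor for platelet-derived growth factor. The SMC group was high in Acta2 and low in PDGFRA and joined smooth muscle of vessels with that of airways. Cells of the MYF group were PDGFRA-positive and stood for progenitors of alveolar myofibroblasts, and the INM group was low in both proteins and stood for undifferentiated progenitors of either fate. RNA of 3 mice per group was amplified and hybridised to 9 one-colour arrays. The strain and the promoter behind RFP are not given in the sources used here.

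MMPs and ADAMTS proteases are zinc enzymes that cut proteins of the extracellular matrix and its surroundings. Most MMPs cleave collagens, gelatin, elastin or other proteases, whereas the ADAMTS family holds the enzymes that trim fibrillar procollagens and those that cut the proteoglycans versican and aggrecan. TIMPs block the active sites of these enzymes, and Timp2 also takes part in the activation of pro-Mmp2 on membrane-bound Mmp14. In the late fetal lung the matrix of the future air spaces is laid down and remodelled by mesenchymal cells.

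SMC replicate 1 stood apart, with correlations of 0.425 to 0.451 with the other 8 arrays over all features, against 0.864 to 0.970 among those 8. Tests therefore used 8 arrays (2 SMC, 3 MYF and 3 INM), and calls with all 9 are given for the members and for each gene list. Pdgfra had log2 signals of 6.89 to 6.93 in SMC replicates 2 and 3, 13.04 to 13.87 in MYF and 8.30 to 8.66 in INM. Acta2 had 14.79 to 15.88 in those SMC arrays, 13.87 to 14.06 in MYF and 13.43 to 13.84 in INM. In SMC replicate 1 these signals were 1.98 for Pdgfra and 14.77 for Acta2. Levels below are log2 signals, differences are log2 differences with their standard error, and a gene was called when limma's Benjamini-Hochberg adjusted p over all genes was under 0.05. The p-values set each difference against the spread between arrays within groups. That spread was shared by the groups and drawn by limma towards that of other genes.

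The MYF arrays carried more signal for 7 protease genes than the INM arrays, and less for 1. The genes that rose were Adamts14, Mmp2, Adamts15, Adamts8, Adamts6, Adamts1 and Adamts10, by 1.47 to 5.77, and the gene that fell was Mmp12, by 2.61. Of all genes tested in MYF against INM, 10.7% were called, with 4.36% higher and 6.38% lower. Calls fell on 6 of 19 Adamts genes, all higher, on 2 of 17 tested Mmp genes and on 0 of 4 Timp genes, by limma. In that comparison 14 of the 40 tested members had an unadjusted p under 0.05, against 24.8% of all genes. The median difference was 0.78 over the Adamts genes, -0.00 over the Mmp genes and 0.64 over the Timp genes, beside 0.05 over all genes. With all 9 arrays the differences between MYF and INM stayed as they were, the shared spread grew, and the call was kept for Adamts14 alone (1.1% of all genes called).

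The SMC arrays carried less signal than the MYF arrays for 6 members and more for none of the 40 tested. Adamts14, Mmp2, Adamts10, Adamts2, Adamts9 and Adamts1 were called, with falls of 1.84 to 4.73. Over all genes 8.22% were called in this comparison, 3.55% lower and 4.67% higher. At an unadjusted p under 0.05 there were 17 of 40 members, against 26.4% of all genes. The median difference of SMC from MYF was -1.18 over the Adamts genes, -0.35 over the Mmp genes and -0.46 over the Timp genes, beside -0.05 over all genes. With all 9 arrays Adamts14 was the member called, beside 0.672% of all genes. Adamts14, Mmp2, Adamts10 and Adamts1 were called in both comparisons, which share the MYF arrays.

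Between SMC and INM limma called 0 of the 40 tested members, where 0.244% of all genes were called (0.091% higher and 0.153% lower). With all 9 arrays 0 members and 0% of all genes were called. In the 8-array fit, at an unadjusted p under 0.05 there were 10 members, against 12.7% of all genes. Differences ran from -1.89 for Mmp12 to 2.37 for Adamts19, and their median was -0.22, beside -0.03 over all genes. With 2 SMC arrays the intervals were wide, and a miss of the threshold does not show that the groups were alike.

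**Figure D1:**
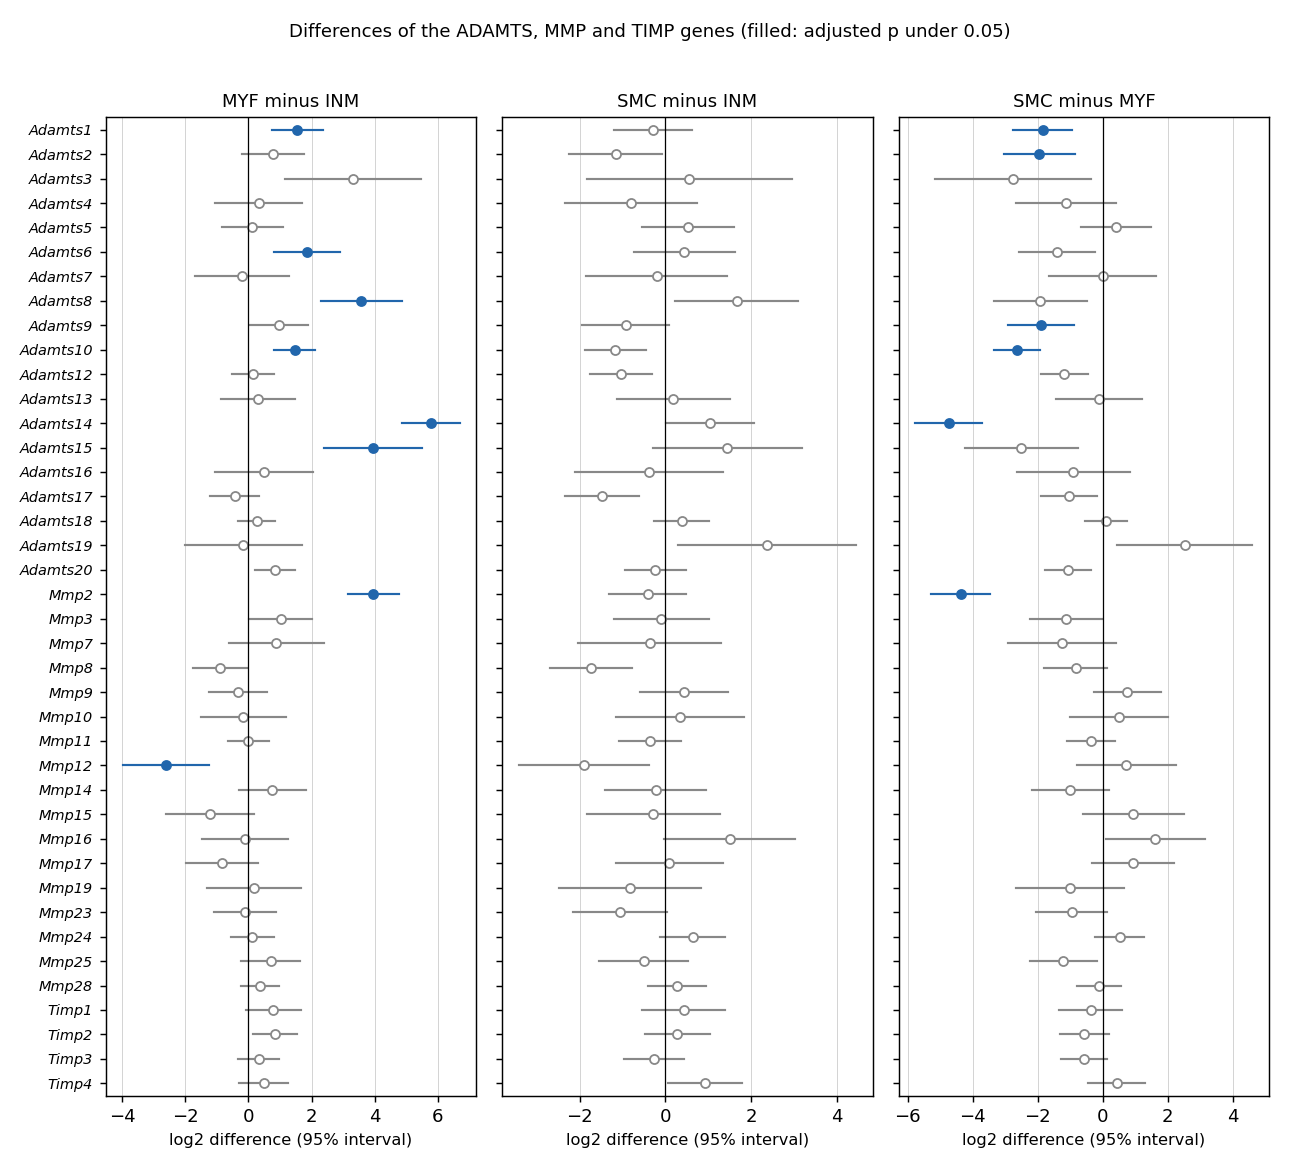
Log2 difference of each of the 40 tested members (rows) in MYF minus INM, SMC minus INM and SMC minus MYF, with 95% intervals from the 8-array fit. Filled points were called: 8 in MYF minus INM, 0 in SMC minus INM and 6 in SMC minus MYF, with Adamts14 and Mmp2 farthest from 0 in both panels that hold MYF.

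Group means were highest in SMC for 9 members, in MYF for 24 and in INM for 7. Among the Adamts genes MYF held the highest mean for 14 of 19, and among the Mmp genes for 7 of 17. These counts describe the 8 arrays, and a highest mean need not exceed the next by more than the spread. The same count was not made over all genes, so the counts do not show a trait of these families.

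The procollagen N-proteinases Adamts2, Adamts3 and Adamts14 remove the amino-terminal propeptide of fibrillar procollagens. Adamts14 read 7.98 and 8.03 in SMC replicates 2 and 3, 12.94, 12.21 and 13.07 in the MYF arrays, and 7.72, 6.54 and 6.66 in the INM arrays. The left-out SMC replicate 1 read 6.75. The lowest MYF array lay more than 4 log2 units above the highest array of either other group. Adamts14 was higher in MYF than in INM by 5.77 ± 0.40 (adjusted p = 0.00035), which is 54.4-fold. It was lower in SMC than in MYF by a difference of -4.73 ± 0.44 (adjusted p = 0.00208). On all 9 arrays both calls stood, with 5.77 ± 0.57 (adjusted p = 0.00775) and -5.15 ± 0.57 (adjusted p = 0.0188). SMC differed from INM by 1.03 (95% interval 0.01 to 2.06, adjusted p = 0.39), which did not pass. The second probe of Adamts14 gave 6.13 in MYF against INM and -4.57 in SMC against MYF, and it passed in both when probes were the unit of the test.

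The promoter of Adamts14 is shown because this gene was called in both comparisons with MYF, as were both of its probes. The RefSeq sequence on build GRCm38.p6 spans chr10:61273370-61273669 on the minus strand, from 250 bases before to 50 bases after the start. Capitals mark the GC box, GGGCGG on either strand, which occurred 7 times and lies in 35.7% of 32851 mouse promoters of the same length. In 1 pair of neighbouring boxes the motifs share a base.
Adamts14: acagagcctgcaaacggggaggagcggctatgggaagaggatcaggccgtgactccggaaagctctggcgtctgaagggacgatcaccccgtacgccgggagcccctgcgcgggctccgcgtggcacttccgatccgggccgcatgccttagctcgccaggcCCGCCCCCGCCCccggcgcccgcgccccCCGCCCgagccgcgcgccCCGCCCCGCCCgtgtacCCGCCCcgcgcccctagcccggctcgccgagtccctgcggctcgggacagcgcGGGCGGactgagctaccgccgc
A match is a description of the letters and says nothing of binding.

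Adamts3 had 4.97 and 3.65 in SMC replicates 2 and 3, 7.37, 7.09 and 6.74 in MYF, and 2.66, 2.45 and 6.15 in INM. MYF lay above INM on every array, but INM replicate 3 was far from the other INM arrays. The difference of 3.31 ± 0.93 between MYF and INM did not pass (adjusted p = 0.0605). Without INM replicate 3 it was 4.51 and passed (adjusted p = 0.00533). A second Adamts3 probe gave 2.13 and passed as a probe (adjusted p = 0.032). The difference of SMC from MYF was -2.75 ± 1.04 (adjusted p = 0.143), and without INM replicate 3 it passed (adjusted p = 0.0218). Adamts3, best known in mice for processing the lymphatic growth factor VEGF-C, thus stayed just outside the threshold on its representative probe.

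Adamts2 had 8.32 and 7.60 in SMC replicates 2 and 3, 9.67, 10.67 and 9.37 in MYF, and 9.58, 8.88 and 8.91 in INM. Both of these SMC arrays were below all MYF arrays, while MYF and INM overlapped. SMC was lower than MYF by a difference of -1.95 ± 0.47 (adjusted p = 0.0439), and MYF against INM gave 0.78 ± 0.42 (adjusted p = 0.305). The ninth array, SMC replicate 1, read 9.18, and on all 9 arrays the SMC difference was -1.54 ± 0.58 (adjusted p = 0.291). The call held without SMC replicate 2 and was lost without any other single array (adjusted p 0.0343 to 0.155 over the 8 omissions). The other Adamts2 probes gave -0.20 and -2.05 in SMC against MYF, and neither passed.

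The largest functional group of ADAMTS enzymes is that of the proteoglycanases, which cut versican and aggrecan. Of these, Adamts8 and Adamts15 showed the widest gaps between MYF and INM. Adamts8 had 12.20 and 10.03 in SMC replicates 2 and 3, 13.21, 12.49 and 13.40 in MYF, and 9.89, 9.30 and 9.18 in INM. The 3 groups did not overlap on these arrays, although the pair of SMC arrays lay far apart. Adamts8 rose in MYF against INM by 3.58 ± 0.56 (adjusted p = 0.00662), or 11.9-fold. SMC against MYF gave -1.92 ± 0.62 (adjusted p = 0.101) and SMC against INM gave 1.66 ± 0.62 (adjusted p = 0.333). With 3.72 SMC replicate 1 was the lowest array, and with it in the fit the MYF difference had an adjusted p of 0.633. Without SMC replicate 3 the SMC and INM arms differed by 2.74 (adjusted p = 0.0347), where the lone SMC array was taken to vary like the others. Without SMC replicate 2 the difference of SMC from MYF was -3.00 and passed (adjusted p = 0.00801).

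Adamts15 had 9.52 and 7.28 in SMC replicates 2 and 3, 11.60, 9.81 and 11.30 in MYF, and 7.51, 6.86 and 6.51 in INM. All MYF arrays exceeded all INM arrays, and the SMC arrays straddled the top of the INM range. The rise in MYF was 3.95 ± 0.68 (adjusted p = 0.01), or 15.4-fold, and on all 9 arrays it had an adjusted p of 0.273 with SMC replicate 1 at 3.55. SMC against MYF gave -2.50 ± 0.76 (adjusted p = 0.0827), and it passed without SMC replicate 2 at -3.62 (adjusted p = 0.017). Adamts8 and Adamts15 are neighbours on chromosome 9, with 0 protein-coding genes between them, and each had 1 probe on the array.

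Adamts1, a versican-cutting member, had 12.20 and 11.14 in SMC replicates 2 and 3, 13.54, 13.15 and 13.86 in MYF, and 12.07, 12.01 and 11.81 in INM. Every MYF array was above every array of the other groups, and SMC and INM overlapped. Adamts1 rose by 1.55 ± 0.35 in MYF against INM (adjusted p = 0.0301). It was lower in SMC than in MYF by a difference of -1.84 ± 0.39 (adjusted p = 0.0296). The signal in SMC replicate 1 was 7.56, and on all 9 arrays the adjusted p values were 0.873 and 0.222. The MYF call was lost without MYF replicate 1 or 3 or any one INM array (adjusted p 0.0103 to 0.110 over 8 omissions). The SMC call was kept only without SMC replicate 2 or MYF replicate 2 (adjusted p 0.00849 to 0.0977). Adamts5, the aggrecanase gene next to Adamts1 on chromosome 16 with 0 protein-coding genes between, gave 0.12 ± 0.42 (adjusted p = 0.905) in MYF against INM.

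The promoter of Adamts1 is shown because this gene was called in both comparisons with MYF. It spans chr16:85803064-85803363 on the minus strand of GRCm38.p6, from RefSeq. Of the 10 Adamts genes with a promoter, only Adamts1 had a TATA box (TATAAA). Capitals mark the TATA box, which starts 32 bases before the start, and 3 GC boxes. The TATA box occurs in 13.6% of all promoters of this length.
Adamts1: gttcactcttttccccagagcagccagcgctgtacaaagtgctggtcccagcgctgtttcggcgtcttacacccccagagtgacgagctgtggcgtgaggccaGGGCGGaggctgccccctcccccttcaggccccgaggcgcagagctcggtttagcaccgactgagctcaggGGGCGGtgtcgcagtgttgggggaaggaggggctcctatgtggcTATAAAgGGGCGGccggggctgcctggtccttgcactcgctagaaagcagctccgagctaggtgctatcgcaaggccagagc
Both strands were searched for each motif.

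Adamts9, another versican-cutting enzyme, had 6.45 and 7.40 in SMC replicates 2 and 3, 9.32, 8.40 and 8.78 in MYF, and 8.31, 7.78 and 7.48 in INM. The SMC arrays were below all others. SMC was lower than MYF by a difference of -1.91 ± 0.44 (adjusted p = 0.0385), and MYF against INM gave 0.98 ± 0.39 (adjusted p = 0.171). With SMC replicate 1, at 3.49, the first was -3.05 ± 0.92 (adjusted p = 0.192). The call was kept only without SMC replicate 3 or MYF replicate 2 (adjusted p 0.0358 to 0.115). All 3 other Adamts9 probes had the same sign, and 1 of them passed at -3.10 (adjusted p = 0.033). Adamts4 and Adamts20, also proteoglycanases, gave 0.33 ± 0.60 (adjusted p = 0.804) and 0.84 ± 0.28 (adjusted p = 0.0983) in MYF against INM.

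Adamts6 and Adamts10 form a pair of related enzymes linked to fibrillin microfibrils. Adamts10 had 6.79 and 7.37 in SMC replicates 2 and 3, 9.70, 9.77 and 9.69 in MYF, and 8.07, 8.52 and 8.17 in INM. On these 8 arrays MYF lay above INM and INM above SMC with no overlap, and the MYF arrays had an SD of 0.04. Adamts10 rose by 1.47 ± 0.28 in MYF against INM (adjusted p = 0.0149) and was lower in SMC than in MYF by a difference of -2.64 ± 0.31 (adjusted p = 0.00391). SMC replicate 1 was at 8.08, and on all 9 arrays the adjusted p values were 0.254 and 0.0745. SMC against INM gave -1.17 ± 0.31 (adjusted p = 0.199), and the sign turned on 2 of the 4 other probes (0.70 and 0.39). The MYF call was lost without MYF replicate 1 or 3 or without INM replicate 1 or 3 (adjusted p 0.00769 to 0.0668). All 4 other probes had the same sign in the comparisons with MYF, with 3 passing in MYF against INM and 2 in SMC against MYF.

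Adamts6 had 6.82 and 6.66 in SMC replicates 2 and 3, 8.53, 7.85 and 8.07 in MYF, and 6.44, 5.34 and 7.12 in INM. MYF was above both other groups on every array. It rose by 1.85 ± 0.46 in MYF against INM (adjusted p = 0.0396), and SMC against MYF gave -1.41 ± 0.51 (adjusted p = 0.132). On all 9 arrays, with SMC replicate 1 at 4.50, the MYF difference had an adjusted p of 0.426. That call was lost without any one MYF array and without INM replicate 1 or 2 (adjusted p 0.0313 to 0.141). Its other 2 probes had the same sign and did not pass.

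**Figure D2:**
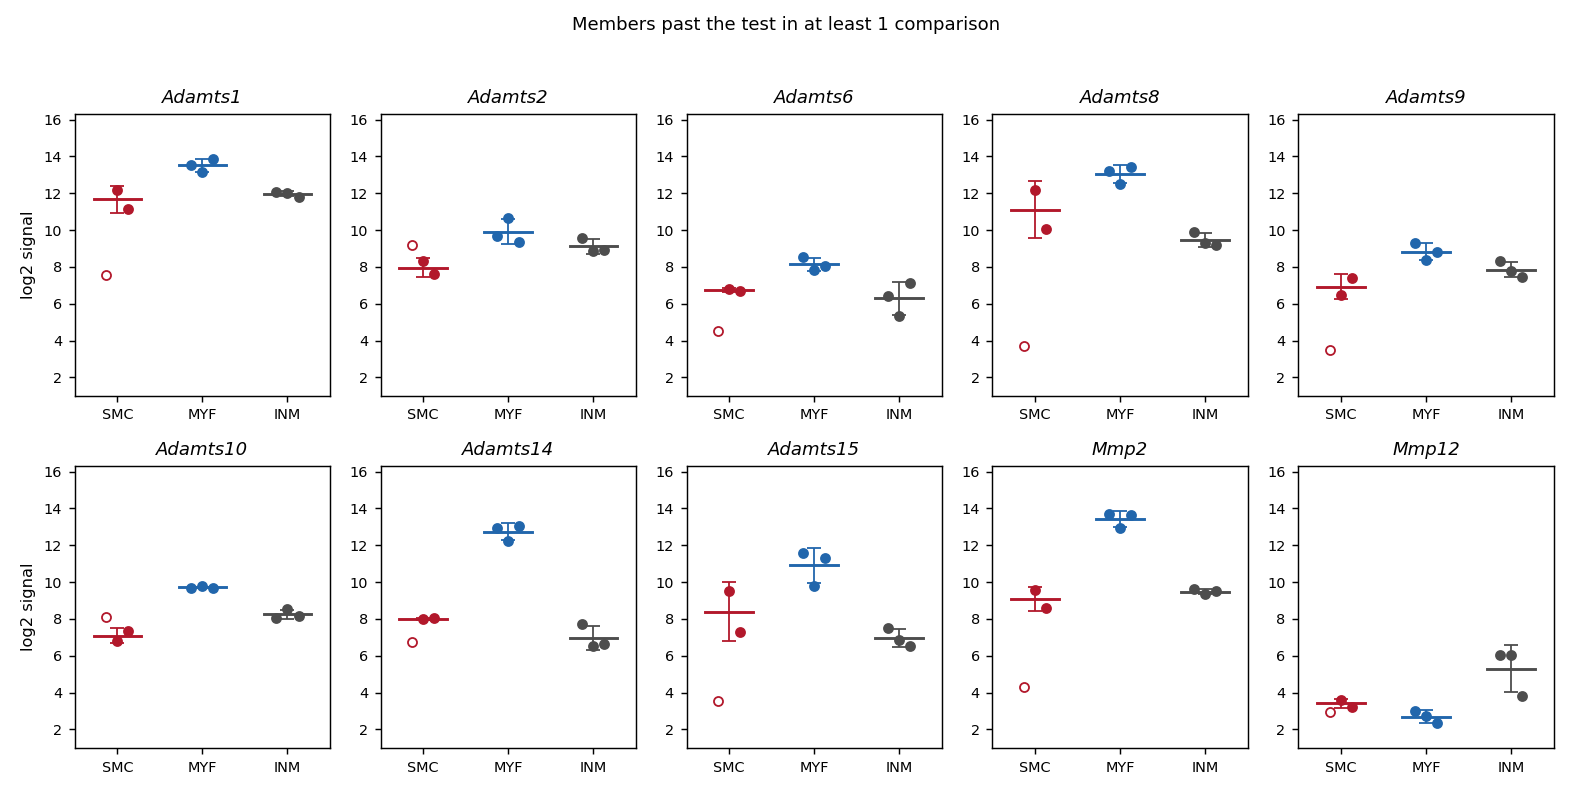
Log2 signal in each array for the 10 members called in at least 1 comparison, by group (SMC, MYF, INM), with the mean and SD over the 8 fitted arrays as bars. The open circle is SMC replicate 1, which was left out of the fit. Adamts14 and Mmp2 have all MYF arrays above 12 and all other arrays below 10.

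The remaining Adamts genes gave smaller or less even differences. Adamts12 and Adamts7, which cut the cartilage matrix protein COMP, gave 0.15 ± 0.28 (adjusted p = 0.82) and -0.20 ± 0.64 (adjusted p = 0.899) in MYF against INM. Adamts12 gave -1.18 ± 0.32 in SMC against MYF (adjusted p = 0.0607). Adamts17 gave -1.47 ± 0.37 in SMC against INM (adjusted p = 0.182), with SMC at 7.88 and 8.64 and INM at 9.95, 9.26 and 9.98. Adamts19 had 9.99 and 6.43 in SMC replicates 2 and 3, 5.06, 6.00 and 6.01 in MYF, and 5.72, 6.26 and 5.54 in INM. Its high SMC mean thus came from SMC replicate 2, and SMC against INM gave 2.37 ± 0.90 (adjusted p = 0.338). The second Adamts19 probe gave 0.80 in SMC against INM. In SMC against MYF it gave -0.46, where the representative probe gave 2.52. Adamts13, the protease of von Willebrand factor, Adamts16 and Adamts18 ranged from 0.26 to 0.51 in MYF against INM. Adamts18 had 10.87 in SMC replicate 1 and 5.80 to 6.44 in the other 8 arrays.

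Mmp2, gelatinase A, was the one Mmp gene called in both comparisons. It had 9.55 and 8.60 in SMC replicates 2 and 3, 13.72, 12.95 and 13.67 in MYF, and 9.60, 9.35 and 9.51 in INM. All MYF arrays were more than 3 log2 units above all others, and SMC and INM overlapped in range. Mmp2 rose by 3.96 ± 0.35 in MYF against INM (adjusted p = 0.000755), with no overlap of the groups. It was lower in SMC than in MYF by a difference of -4.37 ± 0.39 (adjusted p = 0.00185). At 4.33 SMC replicate 1 lay below all others, and on all 9 arrays the adjusted p values were 0.197 and 0.0637. SMC against INM gave -0.41 (95% interval -1.31 to 0.49, adjusted p = 0.713). The other gelatinase, Mmp9, gave -0.31 ± 0.40 in MYF against INM (adjusted p = 0.7).

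The membrane-type MMPs sit on the cell surface, and Mmp14 among them activates pro-Mmp2. Mmp14 had 6.22 and 5.97 in SMC replicates 2 and 3, 6.61, 7.80 and 6.87 in MYF, and 5.47, 6.80 and 6.71 in INM. MYF and INM overlapped, and the difference was 0.77 ± 0.46 (95% interval -0.29 to 1.82, adjusted p = 0.362). SMC against MYF gave -0.99 ± 0.51 (adjusted p = 0.262), and SMC replicate 1 was far above the rest at 10.21. Mmp15, Mmp16, Mmp17, Mmp24 and Mmp25, the other members of this class, ranged from -1.22 to 0.71 in MYF against INM, and none of these 5 passed by limma. Mmp16 had 6.22 and 8.44 in SMC replicates 2 and 3, 5.05 to 6.42 in MYF and 5.55 to 6.13 in INM. SMC differed from INM by 1.50 ± 0.66 (adjusted p = 0.403) and from MYF by 1.62 ± 0.66 (adjusted p = 0.168). The high SMC mean of Mmp16 came mainly from SMC replicate 3. The other Mmp16 probes gave 0.60 and -0.41 in SMC against INM, and 0.56 and -0.95 in SMC against MYF. On the probe with the negative values SMC replicate 3 read 3.19.

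Mmp12, macrophage elastase, was the member that fell in MYF. It had 3.58 and 3.24 in SMC replicates 2 and 3, 3.01, 2.73 and 2.33 in MYF, and 6.04, 6.06 and 3.83 in INM. INM was above both other groups on every array, with INM replicate 3 nearest to them. Mmp12 fell by 2.61 ± 0.59 in MYF against INM (adjusted p = 0.0297). SMC against INM gave -1.89 ± 0.66 (adjusted p = 0.307). In SMC replicate 1 Mmp12 read 2.97, and on all 9 arrays the MYF difference had an adjusted p of 0.121. The call was lost without any one MYF array and without INM replicate 1 or 2 (adjusted p 0.00518 to 0.107). The other 2 Mmp12 probes gave -0.39 and -0.31 and did not pass.

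AP-1 sites are a known feature of inducible Mmp genes. The promoter of Mmp12 is shown because this member was called lower in MYF than in INM. Its second RefSeq entry spans chr9:7347124-7347423 on the plus strand of GRCm38.p6. Capitals mark an AP-1 site (TGANTCA), which starts 44 bases before the start, and a TATAAA match at position 5, with the start counted as 1. The first Mmp12 entry held none of the motifs searched.
Mmp12: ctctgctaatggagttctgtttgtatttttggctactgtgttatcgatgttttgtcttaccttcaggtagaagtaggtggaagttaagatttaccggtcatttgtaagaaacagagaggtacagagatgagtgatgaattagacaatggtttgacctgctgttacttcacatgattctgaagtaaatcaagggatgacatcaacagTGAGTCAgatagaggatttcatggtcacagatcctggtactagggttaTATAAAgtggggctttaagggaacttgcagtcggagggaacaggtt
AP-1 sites were found for 5 of 13 Mmp genes with a promoter (Mmp3, Mmp7, Mmp10, Mmp12 and Mmp13). They were found for 0 of 10 Adamts and 0 of 4 Timp genes, and in 7.81% of all promoters. A gene was counted when any of its promoter entries matched, whereas shares of all promoters are per entry, so the units differ. GC boxes were found for 7 of 13 Mmp, 8 of 10 Adamts and 3 of 4 Timp genes (35.7% of all promoters). The TCF/LEF motif CTTTGA was in 3 of the 27 members with a promoter (16% of all promoters), and the GLI motif GACCACCCA was in 0 of 27 (0.253% of all).

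The 5 Mmp genes with an AP-1 site lie in 1 cluster on chromosome 9 with Mmp8, the neutrophil collagenase. Apart from Mmp12 none of them was called. Mmp3 had 2.67 and 3.10 in SMC replicates 2 and 3, 3.59 to 4.42 in MYF and 2.14 to 3.62 in INM, with 1.02 ± 0.43 in MYF against INM (adjusted p = 0.189). Mmp7 gave 0.89 ± 0.65 (adjusted p = 0.464) and Mmp10 gave -0.16 ± 0.58 (adjusted p = 0.915). Mmp8 gave -0.90 ± 0.37 in MYF against INM (adjusted p = 0.178), and SMC replicate 1 read 9.24 where the other 8 arrays read 4.37 to 7.12. Mmp13, a collagenase, could not be tested, since 6 of its 9 cells were empty.

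The probes of 11 members lay below the median of all genes (6.01) in each group mean they had, and Mmp12 is one of them. No background reading comes with these values, so how far such a probe stood above background is unknown. Of the other secreted Mmp genes, Mmp11 gave -0.00 ± 0.28, Mmp19 gave 0.19 ± 0.64 and Mmp28 gave 0.38 ± 0.26 in MYF against INM, none passing. Mmp19 had 7.73 and 10.59 in SMC replicates 2 and 3, and without SMC replicate 3 it passed as lower in SMC than in both other groups. Mmp23, a membrane-anchored member, gave -0.11 ± 0.42. Mmp28 read 12.22 in SMC replicate 1 and 8.56 to 9.14 in the other 8 arrays.

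The 4 Timp genes did not pass in any comparison of the 8-array fit by limma, with 1 at an unadjusted p under 0.05 in MYF against INM, 0 in SMC against MYF and 1 in SMC against INM. Timp3, which binds the matrix and also inhibits ADAMTS enzymes, had 12.31 and 11.81 in SMC replicates 2 and 3, 12.73, 12.37 and 12.85 in MYF, and 12.27, 12.25 and 12.46 in INM. On this probe the groups lay within about 1 log2 unit, with 0.32 ± 0.28 in MYF against INM (95% interval -0.31 to 0.96, adjusted p = 0.538). The other Timp3 probes gave 0.59 and -0.22 in MYF against INM and 0.49 and -1.13 in SMC against INM, none passing. Timp2 had 11.00 and 10.53 in SMC replicates 2 and 3, 11.12, 11.76 and 11.09 in MYF, and 10.59, 10.44 and 10.42 in INM. All MYF arrays exceeded all INM arrays, by 0.84 ± 0.30 (95% interval 0.16 to 1.53, adjusted p = 0.118). With limma's variance trend this difference passed (adjusted p = 0.0437), and in the other 21 alternatives it did not. Its SMC replicate 1 value was 6.15.

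Timp1 had 8.90 and 8.88 in SMC replicates 2 and 3, 9.19, 9.85 and 8.72 in MYF, and 7.94, 8.82 and 8.62 in INM. MYF and INM overlapped, and their difference was 0.79 ± 0.38 (adjusted p = 0.246). Timp4 had 8.10 and 7.55 in SMC replicates 2 and 3, 7.06, 7.89 and 7.25 in MYF, and 7.25, 6.84 and 6.63 in INM. SMC lay above INM on every one of these arrays, at 0.92 ± 0.38 (95% interval 0.05 to 1.78, adjusted p = 0.368). Differences of SMC from MYF for the 4 genes ranged from -0.59 to 0.43. SMC replicate 1 read 5.00 for Timp1, 12.80 for Timp3 and 10.39 for Timp4.

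**Figure D3:**
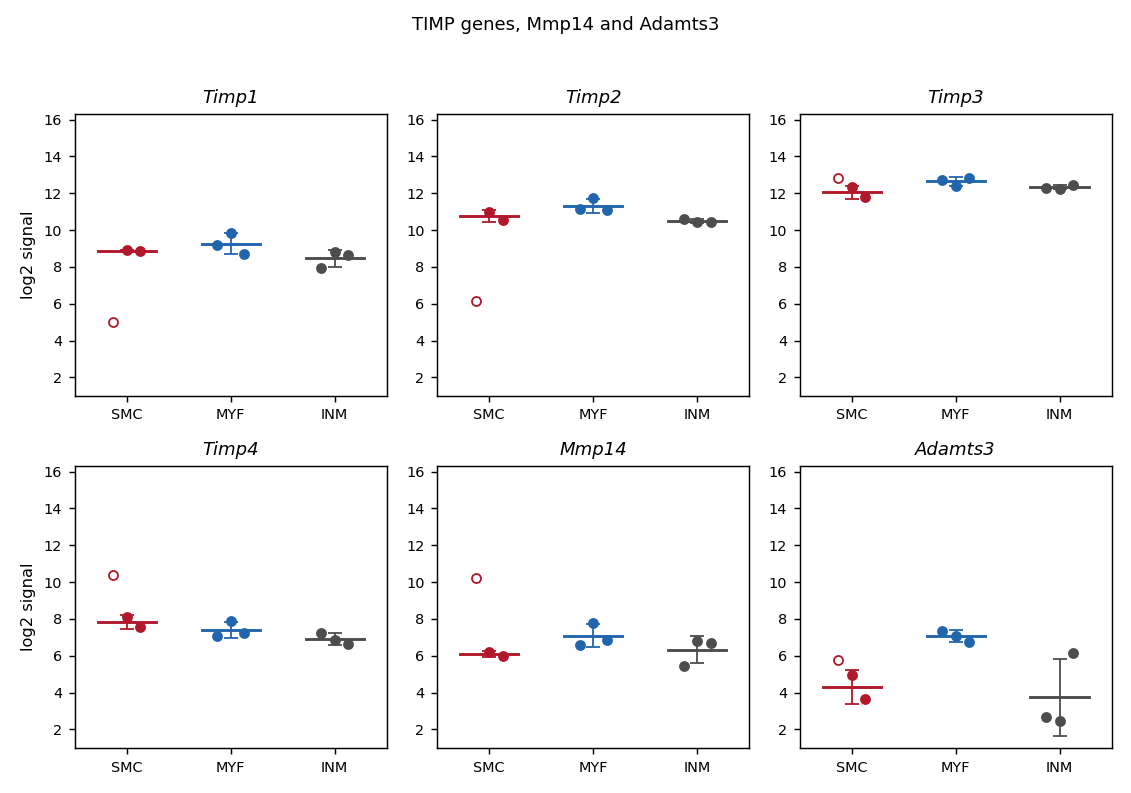
Log2 signal in each array for Timp1 to Timp4, Mmp14 and Adamts3 by group (SMC, MYF, INM), with the mean and SD over the 8 fitted arrays as bars and SMC replicate 1 as an open circle. None of the 6 genes was called, and the INM arrays of Adamts3 split into 2.45 and 2.66 against 6.15.

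Probes of a gene were compared as a check on the calls. Of the 8 members called in MYF against INM, 4 had 1 probe, and for the other 4 every further probe had the same sign. A further probe also passed for 2 of these, Adamts10 and Adamts14. Of the 6 members called in SMC against MYF, 2 had 1 probe, the other 4 agreed in sign on every probe, and a further probe passed for Adamts9, Adamts10 and Adamts14. Some probes that agreed in sign were close to 0. The further Mmp12 probes gave -0.39 ± 0.66 and -0.31 ± 0.40 in MYF against INM, and 1 Adamts2 probe gave -0.20 ± 0.73 in SMC against MYF. Agreement in sign was not counted over all genes.

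**Figure D4:**
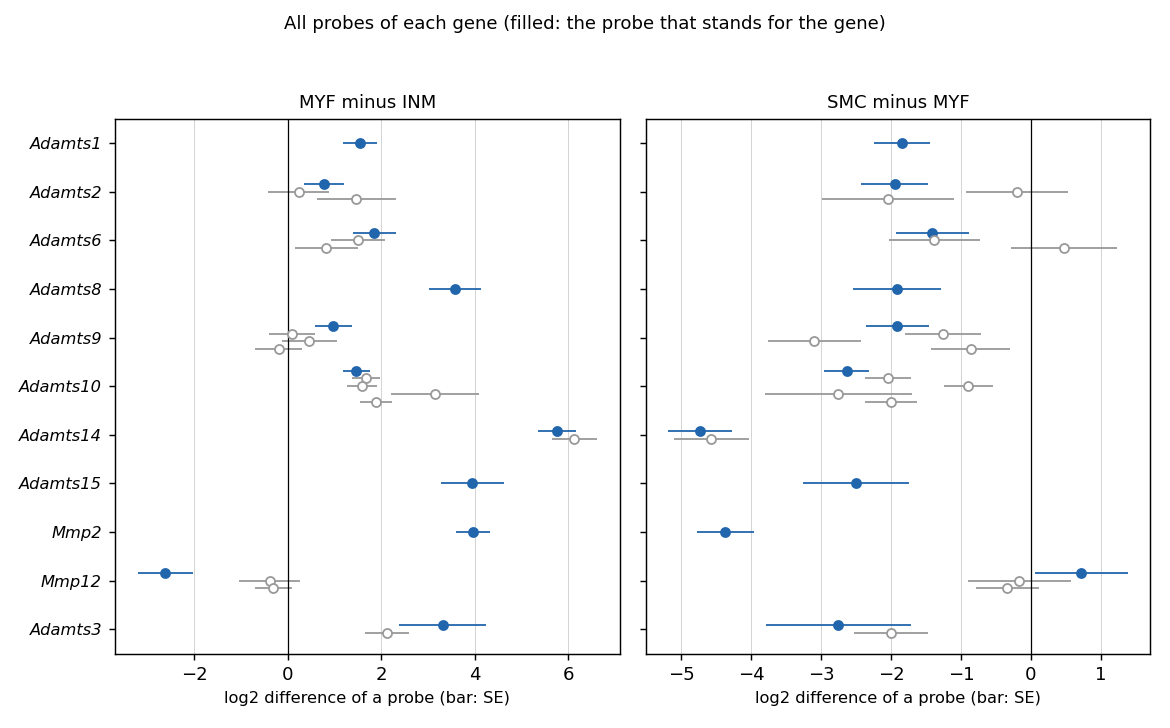
Log2 difference and SE of every probe of the 10 called members and Adamts3 in MYF minus INM and SMC minus MYF, with the probe that stands for the gene filled. Both Adamts14 probes lie near 6 and near -5, whereas the other 2 Mmp12 probes lie at -0.39 and -0.31 in MYF minus INM.

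Genes that work with these proteases were followed as 7 lists. Beside all list counts, 10.7% of all genes were called in MYF against INM, 8.22% in SMC against MYF and 0.244% in SMC against INM. On all 9 arrays these shares were 1.1%, 0.672% and 0%. At an unadjusted p under 0.05 the shares, in the same order, were 24.8%, 26.4% and 12.7% on 8 arrays. On all 9 they were 9.66%, 14.9% and 7.98%. Of the ADAMTS-like proteins, which share the ADAMTS ancillary domains but lack the protease, 3 of 7 rose in MYF against INM: Adamtsl4 by 2.27 ± 0.53 (adjusted p = 0.0325), Adamtsl2 by 2.07 ± 0.44 (adjusted p = 0.0243) and Thsd4 by 1.15. Adamtsl2 was lower in SMC than in MYF, at -4.55 ± 0.50 (adjusted p = 0.00281), and it was also called on all 9 arrays (adjusted p = 0.021). The 3 MYF against INM calls were lost on 9 arrays (3 genes at an unadjusted p under 0.05). Of 11 ADAM genes, the membrane-bound relatives, Adam28 and Adam22 fell in MYF against INM, by 2.55 ± 0.59 and 1.95 ± 0.42. Adam33 and Adam22 rose in SMC against MYF, by 4.14 ± 0.80 and 3.01 ± 0.47, and Adam9 was at -1.85 ± 0.44. On all 9 arrays limma called 0 ADAM genes (1 in MYF against INM and 3 in SMC against MYF at an unadjusted p under 0.05), with Adam22 at 1.71 (adjusted p = 0.428), Adam33 at 3.33 (adjusted p = 0.165) and Adam9 at -3.79 (adjusted p = 0.278) in SMC against MYF. Of 5 further Mmp genes, 0 passed in MYF against INM by limma (0 at an unadjusted p under 0.05), and Mmp27 rose in SMC against MYF by 3.28 ± 0.70 (adjusted p = 0.0296), a call that was lost on 9 arrays (adjusted p = 0.198).

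Among 12 tested activators and plasmin system genes, 3 rose and 2 fell in MYF against INM, where 10.7% of all genes were called. Pcsk5, a furin-like convertase, rose by 3.69 ± 0.44 (adjusted p = 0.00217) and Ctsl, cathepsin L, by 1.79 ± 0.27, while Plaur, the urokinase receptor, fell by 3.46 ± 0.77 and Hpn, hepsin, fell by 1.84 ± 0.34. In SMC against MYF 3 fell, with Pcsk5 at -2.98 ± 0.50 and Serpine2, protease nexin, at -1.62 ± 0.27. Among 10 procollagen processing genes, 3 rose and 1 fell in MYF against INM, with Col3a1 at 1.52 ± 0.24, Col1a2 at 1.36 ± 0.27 and the C-proteinase gene Tll1 at -3.07 ± 0.58. SMC against MYF gave 1 higher, Tll1 at 3.14 ± 0.65, and 2 lower, Col3a1 at -1.73 ± 0.27 and Bmp1 at -1.61 ± 0.36. With all 9 arrays limma called 0 of the activators (6 in MYF against INM and 5 in SMC against MYF at an unadjusted p under 0.05) and 0 of the procollagen genes (1 and 2).

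Of 18 substrate genes, 6 rose and 1 fell in MYF against INM, where 10.7% of all genes were called. The proteoglycan gene Dcn was at 2.00 ± 0.53 and Thbs1 at 1.97 ± 0.43, while Vwf was at -5.24 ± 0.40. Vwf is the substrate of Adamts13 and a product of endothelium. In SMC against MYF 1 rose, Vwf at 5.87 ± 0.44, and 5 fell, with Thbs1 at -2.64 ± 0.48 and Bgn at -2.10 ± 0.30. With all 9 arrays the calls on Vwf stood (adjusted p = 0.0149 and 0.025), and limma called 0 of the other substrate genes. There Thbs1 was at -5.45 ± 1.96 and Bgn at -4.79 ± 1.86 in SMC against MYF (adjusted p = 0.27 and 0.3). Among 9 clearance and inhibitor genes, 3 rose and 2 fell in MYF against INM. Reck, a membrane-anchored MMP inhibitor, rose by 3.37 ± 0.44 (adjusted p = 0.00318), and Bsg, the MMP inducer basigin, fell by 2.01 ± 0.33. In SMC against MYF Reck was at -4.48 ± 0.50 (adjusted p = 0.00301) and Ccbe1, the partner of Adamts3 in VEGF-C processing, at -4.06 ± 0.41, while Bsg rose by 1.56 ± 0.36. On all 9 arrays the Bsg difference turned to -1.44 ± 2.08 (adjusted p = 0.711). Reck and Ccbe1 kept their SMC against MYF calls there, both with an adjusted p of 0.0188, and Reck its MYF against INM call (adjusted p = 0.0333), while the other clearance calls were lost. Of these 7 lists, 1 gene passed in SMC against INM, Ccbe1 at -3.70 ± 0.41 (adjusted p = 0.0252), and on 9 arrays this call was lost (-3.80 ± 0.48, adjusted p = 0.118).

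**Figure D5:**
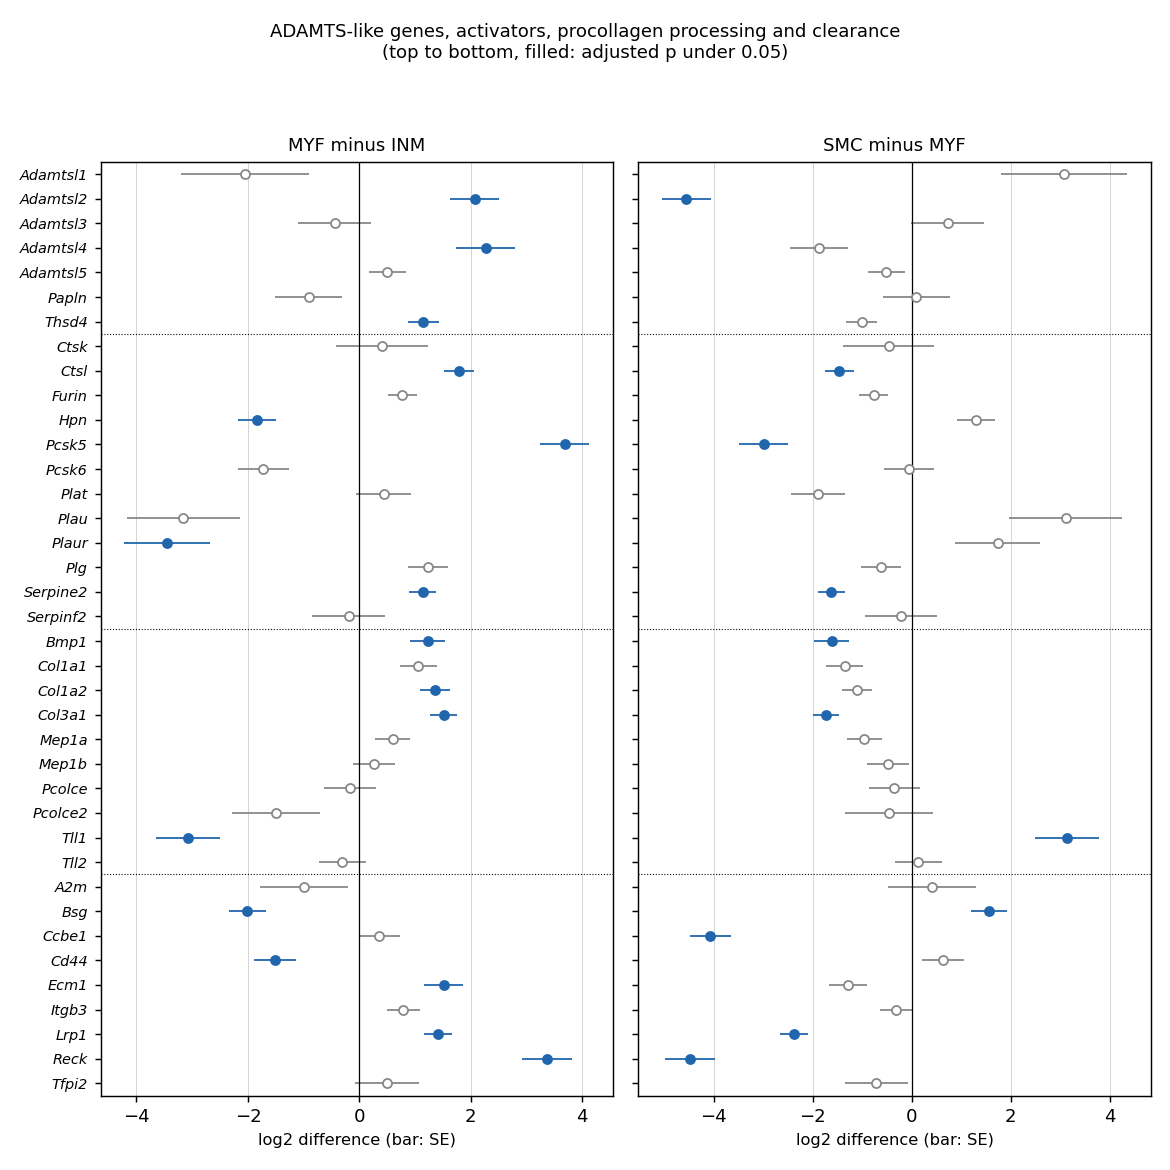
Log2 difference and SE of 38 genes in MYF minus INM and SMC minus MYF, in 4 blocks from top to bottom: ADAMTS-like genes, activators, procollagen processing and clearance. Filled points were called; Pcsk5 and Reck stand at 3.69 and 3.37 in the left panel and at -2.98 and -4.48 in the right.

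Markers of other cell types moved in the same comparisons. Beside the counts below, 10.7% of all genes were called in MYF against INM, 8.22% in SMC against MYF and 0.244% in SMC against INM. On all 9 arrays these shares were 1.1%, 0.672% and 0%. Epithelial markers were lower in MYF than in INM for 17 of 17 tested genes (median -5.51), endothelial markers for 10 of 12 (-4.24), leukocyte markers for 8 of 10 (-3.78) and macrophage markers for 5 of 11, with 1 higher (-2.67). The mean epithelial marker level was 9.75 to 11.2 in SMC replicates 2 and 3, 6.07 to 6.51 in MYF and 11.6 to 12.0 in INM. The mean macrophage level, to set beside Mmp12, was 8.08 to 9.90 in SMC, 5.85 to 6.35 in MYF and 8.13 to 8.51 in INM. In MYF 6 of the 11 macrophage markers lay below the median of all genes, against 1 in SMC and 3 in INM. The macrophage levels of SMC and INM overlapped. Mmp12 was lower in both fitted SMC arrays than in all INM arrays, but this difference of -1.89 was not called. The other Mmp12 probes gave -0.55 and -0.64 in SMC against INM and did not pass. In SMC against MYF epithelial markers rose for 17 of 17 genes, endothelial markers for 10 of 12, with 1 lower, leukocyte markers for 6 of 10 and macrophage markers for 6 of 11. Cardiac markers averaged 10.4 to 12.3 in SMC, 4.98 to 5.96 in MYF and 7.98 to 8.24 in INM, with 12 of 14 higher in SMC against MYF, 6 lower in MYF against INM and 2 higher in SMC against INM. Lipofibroblast and matrix fibroblast markers averaged 7.19 to 7.30 in SMC, 7.81 to 8.23 in MYF and 9.44 to 10.1 in INM. Of these 12 genes 6 fell in MYF against INM (median -1.90), 3 fell in SMC against INM, and 1 rose and 3 fell in SMC against MYF. Of 8 mesothelial markers 4 fell in MYF against INM (median -2.12) and 2 rose in SMC against MYF. Alveolar myofibroblast markers rose for 9 of 11 genes in MYF against INM (median 4.11), and 9 of 11 fell in SMC against MYF (-3.05). Of 12 smooth muscle markers 4 rose in MYF against INM and 3 in SMC against MYF, and limma called 0 in SMC against INM. Their median difference of SMC from INM was 1.96, with 9 at an unadjusted p under 0.05, beside 12.7% of all genes. Smooth muscle markers averaged 11.0 to 12.3 in SMC, 10.2 to 10.4 in MYF and 9.20 to 10.3 in INM. Neutrophil markers, to set beside Mmp8, averaged 5.12 to 5.91 in SMC, 5.02 to 5.57 in MYF and 4.95 to 5.98 in INM, and 1 of 10 fell in MYF against INM. In SMC against INM 1 macrophage marker rose. Of 6 tested erythroid markers limma called 0 in each comparison of the 8-array fit. At an unadjusted p under 0.05 there were 4 of them in SMC against INM and 3 in SMC against MYF, beside 12.7% and 26.4% of all genes. On all 9 arrays the calls in MYF against INM were 10 of 17 epithelial, 3 of 12 endothelial, 2 of 10 leukocyte, 2 of 11 macrophage and 4 of 11 myofibroblast markers. The calls in SMC against MYF were then 7 of 17 epithelial, 2 of 12 endothelial, 2 of 11 macrophage, 4 of 14 cardiac, 5 of 11 myofibroblast and 1 of 12 fibroblast markers, and limma called 0 of the smooth muscle, mesothelial and neutrophil markers in any comparison. The part of these other cells in the protease differences was not tested. In sorted pools, fewer cells of a type and less RNA per cell cannot be told apart.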

How the data were processed

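RNA of sorted cells was measured on 9 one-colour Agilent arrays, 3 per group. The deposited values are log2 signals per feature. They were made with limma, per the submitters' processing notes. Its version, the background correction and the genome build are not given in the sources used here. The 9 columns share 1 distribution, from 1.65 to 16.0, and were taken as quantile-normalized by the authors. Empty cells, 1197 in 733 of 62976 features, were not filled in. Precision is limited by the number of arrays.

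Symbols came from the platform annotation (43941 features with 1 symbol, 0 with several, 19035 with none) and were updated through RefSeq: 42083 were current, 1851 were updated and 7 kept an old symbol. Each of 24291 genes was represented by its brightest probe on average over all arrays. The tests ran in R 4.3.3 with limma 3.58.1 (lmFit, eBayes) and version 1.17.8 of the data.table package, with 1 mean per group, a shared spread, two-sided tests, Benjamini-Hochberg adjustment over all genes and a threshold of 0.05. A gene needed at least 2 values per group. The fit left out SMC replicate 1, a choice made knowing that it stood apart, and all 9 arrays were an alternative among 22. The method was tested on simulated data.

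Members and gene lists were chosen with earlier results of these data known. Every member called, the Timp genes, Mmp2, Mmp14 and the procollagen N-proteinases were named whatever their values, and the others were given by values or ranges. Of each related list the 2 most positive and 2 most negative called genes could be named. The labels do not tie replicate numbers to a shared animal or day, and deviations of same-numbered arrays correlated at -0.0505 to 0.0218 (7 pairs), so the numbers were not used as pairs. Promoters, 300 bases each, came from RefSeq and were found for 27 of 41 members (30 entries). Those of members called in both comparisons with MYF, and of the member lower in MYF than in INM, are shown where found. Mmp2 and Adamts10 were called in both comparisons but had no promoter entry.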

Additional observations from a re-analysis of the deposited data

How the results depend on the processing

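Of 22 alternatives, each a single change to the 8-array fit, none reversed a direction among called members, and of the values for called members 237 kept their call and 70 lost it. In MYF against INM 8 members were called, and 1 with all 9 arrays, 5 with the probe of largest interquartile range, and 4 to 8 with 1 array left out. The fall was to 4 without MYF replicate 1, MYF replicate 3 or INM replicate 1, and to 5 without INM replicate 2. Of all genes, 10.7% were called in the 8-array fit and 4.83%, 4.71%, 5.18% and 5.12% in these 4 omissions, in that order. The share was 1.1% with all 9 arrays and 11% with the probe of largest interquartile range. In SMC against MYF 6 were called, and 1 with all 9 arrays, 3 with the compared groups alone and 3 with array weights. With 1 MYF or INM array left out the count was 3 to 5, where 3.41% to 6.59% of all genes were called. The lowest count came without MYF replicate 1 or 3 or INM replicate 1 or 2. In SMC against INM 0 were called, and 0 with any 1 MYF or INM array left out (0.0207% to 0.0869% of all genes). Leaving out an SMC array leaves 1, which is assumed to vary like the other groups, so calls of those omissions are not counted here. The replicate block, which treats equal numbers as a pairing, gave 5 in MYF against INM, 3 in SMC against MYF and 0 in SMC against INM. With it 6.52%, 3.18% and 0% of all genes were called. In SMC against MYF the 8-array fit called 8.22% of all genes. That share was 0.672% with all 9 arrays, 2.58% with the compared groups alone and 3.19% with array weights. With limma's variance trend 10 were called in MYF against INM, adding Adamts3 and Timp2, where 13.7% of all genes were called. In SMC against MYF it called 8, adding Adamts8 and Adamts15, beside 12.3% of all genes. Adamts14 was called in all 22 alternatives in both comparisons with MYF. Mmp2, Adamts8 and Adamts15 lost the MYF against INM call with all 9 arrays alone, as did Mmp2 in SMC against MYF. Centring or a further quantile normalization moved no array median by more than 9.24e-05, and both called the same members as the 8-array fit. Asking for an absolute difference of at least 1 could remove no member, since all called members differed by 1.47 or more. In MYF against INM, leaving out either fitted SMC array repeated the fit of the compared groups alone. The 237 kept calls are therefore not as many separate checks. The cause of lost calls was not tested, except that fewer arrays or a wider spread enter by construction. Signals of dim probes carry no background reading.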
